A study of Arabidopsis thaliana with 4 samples.

Results

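Genes that specify the organs of the flower were examined in mRNA-seq libraries of *Arabidopsis thaliana* seedlings. The set was given by 13 gene identifiers, all of type II MADS-box transcription factors. They cover the sepal and petal gene AP1 with its relatives CAL and FUL, the petal and stamen genes AP3 and PI, the stamen and carpel gene AG, the SEPALLATA genes SEP1 to SEP4, and the carpel and ovule genes SHP1, SHP2 and STK. The deposited gene table holds 1984 genes, and 6 of the 13 identifiers are in it: SEP1, SEP3, PI, AP3, SHP1 and SHP2. The other 7, namely AP1, FUL, CAL, AG, SEP2, SEP4 and STK, are not listed and were therefore not analysed here.

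Seedlings of the *ndx1-4* mutant were compared with seedlings of the Col-0 wild type at an age of 10 days, with 2 libraries per genotype. The *ndx1-4* line is in the Col-0 background and carries the T-DNA insertion WiscDsLox344A04 in NODULIN HOMEOBOX (NDX). It is a single insertion line, so an effect of NDX cannot be told apart from that of another difference carried by the line. How many seedlings went into a library, and how they were grown, is not given in the sources used here, and the p-values below measure only the spread between these libraries. NDX (AT4G03090), which checks the labels, measured 0.98 and 1.00 FPKM in *ndx1-4*, against 5.08 and 4.96 FPKM in Col-0.

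In the ABC(E) model of flower development, floral organs are specified by combinations of MADS-box proteins, which bind DNA as multimers at short elements called CArG boxes. The B-class proteins AP3 and PI act as an obligate heterodimer, and the E-class SEPALLATA proteins are the partners that join them with the other classes. In wild-type seedlings these genes are kept repressed, with Polycomb group proteins among their repressors, and they are activated in floral meristems by LEAFY and its cofactors. NDX has been reported to bind RING1A and RING1B, subunits of Polycomb repressive complex 1.

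The table lists genes that the authors had called different between the same 4 libraries at an adjusted p of 0.01. The 6 genes were thus chosen by their call, and so by their levels, in the contrast described here, and their values are given as a description, with no test. As background, 1984 of 33056 annotated genes are in the table (6.00%), and 6 of the 13 floral identifiers are (46.2%). The 13 were chosen with earlier results of these data known, so the 46.2% is a description and no measure of enrichment. In all 6 the level was higher in *ndx1-4*. Their Col-0 levels were low, which left little room for a call in the other direction. Genes listed and higher in *ndx1-4* make up 2.61% of annotated genes and genes listed and lower 3.39%, so that 43.5% of listed genes were higher. The values are FPKM, read numbers scaled to transcript length and to library size, so levels may be compared between genes.

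The annotated start regions of SEP3 and PI are shown first, since these genes reached the highest levels of the 6 in *ndx1-4*. Each window runs from 250 bases before to 50 bases after the RefSeq gene start in the TAIR10.1 assembly and is written 5′ to 3′ in the direction of the gene. Capitals mark GAGAGA or its reverse complement TCTCTC, a repeat bound by BASIC PENTACYSTEINE proteins, and CATGCA, the RY motif bound by B3 domain proteins such as VAL1. The SEP3 window is chr1:8596074-8596373 on the minus strand and the PI window is chr5:6828654-6828953 on the plus strand.
SEP3: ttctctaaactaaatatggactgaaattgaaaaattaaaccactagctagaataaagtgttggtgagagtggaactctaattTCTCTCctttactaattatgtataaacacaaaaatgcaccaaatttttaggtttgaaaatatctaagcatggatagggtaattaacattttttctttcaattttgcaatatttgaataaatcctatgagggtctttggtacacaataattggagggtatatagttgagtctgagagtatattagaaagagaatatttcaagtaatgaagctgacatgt
PI: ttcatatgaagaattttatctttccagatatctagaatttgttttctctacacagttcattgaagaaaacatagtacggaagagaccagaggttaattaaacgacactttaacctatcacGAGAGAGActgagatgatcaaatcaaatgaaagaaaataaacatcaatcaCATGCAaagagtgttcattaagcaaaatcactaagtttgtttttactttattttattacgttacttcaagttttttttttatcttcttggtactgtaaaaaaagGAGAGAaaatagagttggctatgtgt

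Positions are counted from the annotated start, negative before it. In SEP3 the repeat begins at -168. In PI it begins at -130 and, overlapping, at -128, and again at 25, and the RY motif begins at -80. SHP1 and SHP2 each hold 1 such repeat in the same window, at -30 in SHP1 and at -160 in SHP2, and SEP1 and AP3 hold none. GAGAGA, searched on both strands, is thus in 4 of the 6 windows, against 29.2% of the 27443 windows of protein-coding genes. The RY motif is in 1 of 6, against 9.72% of all windows. The CArG box and CCANTG, the core of LEAFY binding sites, are in 0 of 6, against 3.05% and 25.7% of all windows. The CArG box was searched only as CCWWWWWWGG, where W is A or T, so variant forms would be missed. These are matches of letters in a short window and do not show binding.

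SEP1 and SEP3, the E-class cofactor genes, were among the listed genes with the largest increases in *ndx1-4*. SEP1 (AT5G15800, TAIR10 chromosome 5, 5151334 to 5154253, minus strand) measured 15.72 and 16.25 FPKM in *ndx1-4*, against 0.17 and 0.31 FPKM in Col-0. Both mutant libraries lay far above both wild-type libraries, and the lowest mutant value was 50.7 times the highest wild-type value. The means were 15.98 ± 0.375 FPKM in *ndx1-4* and 0.24 ± 0.099 FPKM in Col-0 (SD, n = 2 each), a ratio of 66.6. Rounding of the deposited values to steps of 0.01 alone allows a ratio from 65.2 to 68.0. The 2 low Col-0 values differed 1.82-fold, so the ratio is less precise than that range. As log2(FPKM + 1), a scale that compresses changes at low levels, the difference was 3.78, rank 9 among the 864 listed genes that were higher in *ndx1-4*. Ranks below are of the same kind and leave out the 1120 genes that were lower in *ndx1-4*, some of which differed by more.

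SEP3 (AT1G24260, chromosome 1, 8593536 to 8596123, minus strand), which is needed for petal, stamen and carpel identity together with the other SEPALLATA genes, measured 21.27 and 24.49 FPKM in *ndx1-4*, against 1.01 and 1.42 FPKM in Col-0. The genotypes did not overlap, and the lowest mutant value was 15.0 times the highest wild-type value. The means were 22.88 ± 2.28 FPKM in *ndx1-4* and 1.215 ± 0.29 FPKM in Col-0 (SD, n = 2 each), a ratio of 18.8 and a log2(FPKM + 1) difference of 3.43 (rank 16). SEP3 had the highest Col-0 mean of the 6 genes. The ratio of SEP3 to SEP1 was 1.35 and 1.51 in the *ndx1-4* libraries, against 5.94 and 4.58 in the Col-0 libraries. The SEPALLATA pair thus lay closer together in the mutant as a ratio, but not in FPKM. The Col-0 ratios rest on low SEP1 values, 0.17 and 0.31 FPKM.

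**Figure D1:**
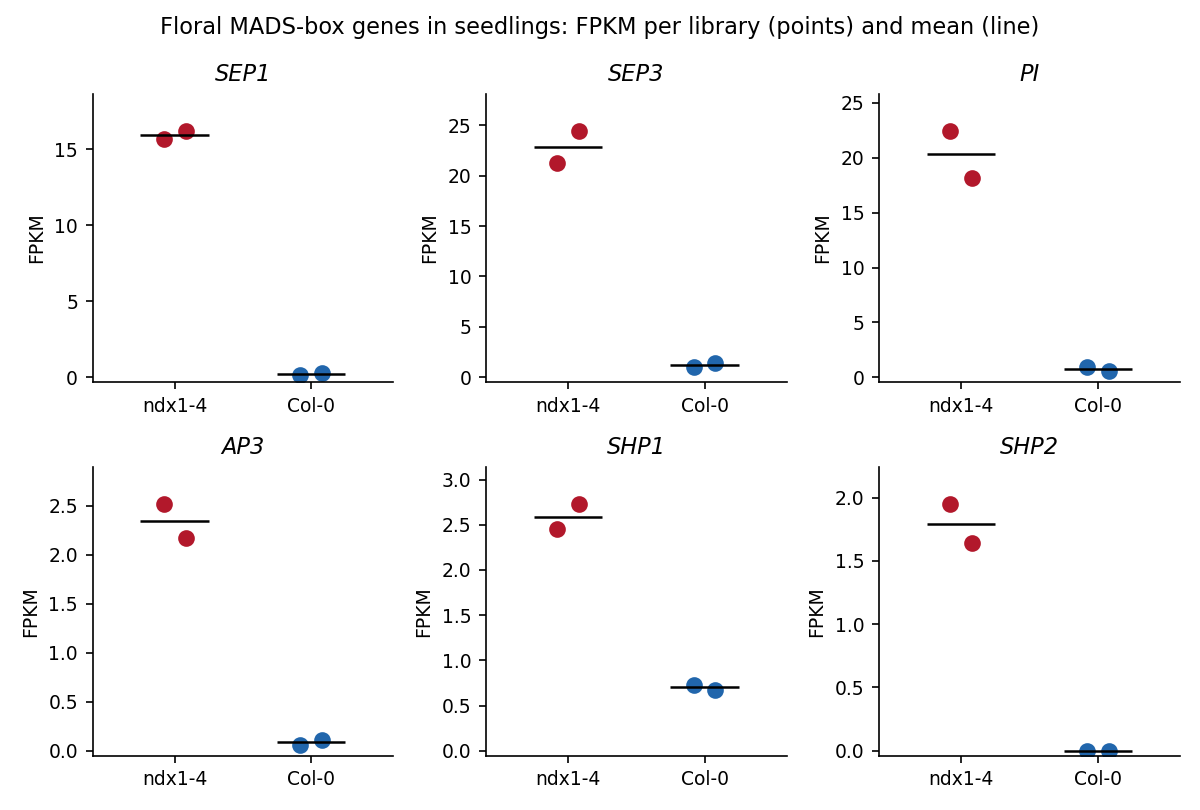
Level of each listed floral organ identity gene in FPKM (vertical axis, a scale of its own in each panel), with 1 point per library and a line at the mean of the 2 libraries of a genotype. In each of the 6 panels both ndx1-4 libraries lie above both Col-0 libraries. SEP3 reaches 24.49 FPKM and SHP2 is listed at 0 in Col-0.

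PI and AP3 encode the B-class heterodimer, and both were higher in *ndx1-4*. PI (AT5G20240, chromosome 5, 6828904 to 6831515, plus strand) measured 22.49 and 18.15 FPKM in *ndx1-4*, against 0.91 and 0.59 FPKM in Col-0. The genotypes did not overlap, and in both of them replicate 1 was above replicate 2. The means were 20.32 ± 3.07 FPKM in *ndx1-4* and 0.75 ± 0.226 FPKM in Col-0 (SD, n = 2 each), a ratio of 27.1 and a log2(FPKM + 1) difference of 3.61 (rank 12).

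AP3 (AT3G54340, chromosome 3, 20119140 to 20121314, minus strand) measured 2.52 and 2.17 FPKM in *ndx1-4*, against 0.06 and 0.11 FPKM in Col-0. The mutant libraries again lay above the wild-type libraries, at a level far under that of PI. The means were 2.345 ± 0.247 FPKM in *ndx1-4* and 0.085 ± 0.0354 FPKM in Col-0 (SD, n = 2 each), a ratio of 27.6. Rounding alone allows 26.0 to 29.4, and the Col-0 values differed 1.83-fold. Among the 483 listed genes whose longest transcript has 1000 to 1500 bases, as that of AP3 does, the lowest value above 0 was 0.05 FPKM in each Col-0 library. AP3 in Col-0 was thus close to the lowest level these libraries record, and its ratio is imprecise for that reason. The ratio of PI to AP3 was 8.93 and 8.36 in the *ndx1-4* libraries, against 15.2 and 5.36 in the Col-0 libraries, and the mutant values lay within the wild-type range.

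SHP1 and SHP2 are a redundant pair that acts in ovules and in the opening zone of the fruit, and both were at low levels, as AP3 was. SHP1 (AT3G58780, chromosome 3, 21738160 to 21742517, plus strand) measured 2.45 and 2.73 FPKM in *ndx1-4*, against 0.73 and 0.67 FPKM in Col-0. Its ratio of means, 3.70, was the lowest of the 5 genes with a level above 0 in Col-0. The means were 2.59 ± 0.198 FPKM in *ndx1-4* and 0.70 ± 0.0424 FPKM in Col-0 (SD, n = 2 each), a log2(FPKM + 1) difference of 1.08 (rank 155). SHP2 (AT2G42830, chromosome 2, 17820114 to 17824013, plus strand) measured 1.95 and 1.64 FPKM in *ndx1-4* and stood at 0 in the table for each Col-0 library. Its log2(FPKM + 1) difference was 1.48 (rank 86), and no ratio is given against a level of 0. A value of 0 is not evidence of absence, since the number of reads behind these values is unknown.

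The SHP pair is shown at its start regions because the annotated starts differ while the sequence is shared. Capitals mark the longest run the windows share, 23 bases. It begins at position 22 from the annotated start of SHP1 (chr3:21738170-21738209, plus strand) and at -239 from that of SHP2 (chr2:17819864-17819903, plus strand).
SHP1: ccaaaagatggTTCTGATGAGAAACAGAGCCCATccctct
SHP2: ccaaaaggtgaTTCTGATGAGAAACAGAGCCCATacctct
Near-identical copies can split reads between genes, so the annotated transcripts of the 6 genes were compared with those of all other genes. All transcripts were written on the plus strand of the genome and reverse complements were not searched. Copies shared by genes on opposite strands would therefore be missed. As so written, none of their 50-base windows, the length of a read, matched a gene elsewhere in the genome (0 windows in each of the 6 genes). At 31 bases 9 windows of SHP1 were shared, 5 of them with AT1G10095, 4 with SHP2 and 1 with TPPI, and a window can count for more than 1 gene. SHP2 shared 4 with SHP1, SEP1 shared 2 with SEP2, SEP3 shared 6 with CAL, AP1 or FUL, and PI and AP3 shared 0. In this comparison no 50-base window was thus shared with a distant gene, and sharing between genes on opposite strands was not tested.

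Overlapping genes are another source of shared reads, because the library kit does not keep strand. SEP3, PI and AP3 overlap no annotated gene. In SEP1 29.3% of exon bases lie under the noncoding AT5G02455 and 6.51% under AT5G15790, in SHP1 17.5% lie under GAUT15 and 0.939% under the noncoding AT3G09155, and in SHP2 56.7% lie under the noncoding AT2G42835. All 5 of these genes are on the opposite strand and 0 of them are in the table. A share of antisense reads in SEP1, SHP1 and SHP2 was not tested.

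**Figure D2:**
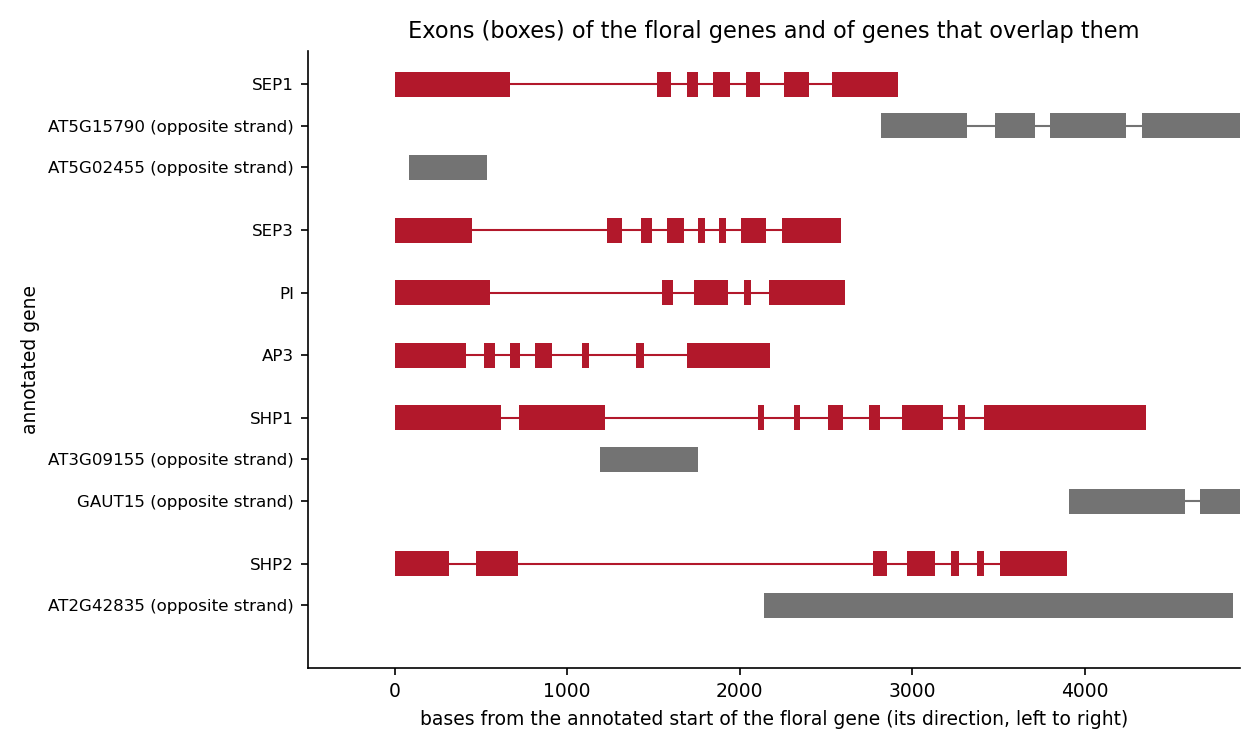
Map of the 6 floral genes to scale, in bases from the annotated start of each (horizontal axis, left to right in the direction of the gene), with the exons of all annotated transcripts joined as boxes, and the genes that overlap them on the opposite strand in grey. SEP3, PI and AP3 have no overlapping gene, and AT2G42835 covers 56.7% of the exon bases of SHP2.

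SEP3, PI and SEP1 lay between 15.72 and 24.49 FPKM in *ndx1-4*, while SHP1, AP3 and SHP2 lay between 1.64 and 2.73 FPKM. In the mutant the order of mean levels was SEP3, PI, SEP1, SHP1, AP3 and SHP2. The libraries of SEP3 and PI overlapped in range, as did those of SHP1 and AP3, so neither pair of neighbours differed beyond its spread. SEP1 lay below the lowest PI value, and SHP2 below the lowest AP3 value. In Col-0 the order was SEP3, PI, SHP1, SEP1, AP3 and SHP2, and only PI and SHP1 overlapped among neighbours. SEP1 was thus above SHP1 in *ndx1-4* and below it in Col-0. Summed over the 6 genes the level was 66.4 and 65.4 FPKM in *ndx1-4*, against 2.88 and 3.10 FPKM in Col-0. In bulk seedlings a change in RNA per cell and a change in the number of expressing cells cannot be told apart.

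Against the table as a whole, the 6 genes stood out by their low wild-type level. Their Col-0 means were all under 1.5 FPKM, as were those of 174 of the 1984 listed genes, and of these 174 genes 152 were higher in *ndx1-4*. A called gene so low in Col-0 has little room to be lower in *ndx1-4*, so this direction was largely set by the selection. Only 20 of the 174 had an *ndx1-4* mean of at least 10 FPKM, and SEP1, SEP3 and PI were 3 of the 20. Both limits were set after the values had been seen. The median log2(FPKM + 1) difference was 2.53 over the 6 genes. It was -0.20 over all listed genes and 0.53 over the listed genes that were higher in *ndx1-4*. Of those 864 higher genes only 152 had a Col-0 mean under 1.5 FPKM, so these medians do not compare genes of like level. The contrast is therefore not read as a property of the floral genes. The groups did not overlap in 6 of the 6 genes, nor in 99.9% of all listed genes, so the lack of overlap says nothing particular about the set.

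**Figure D3:**
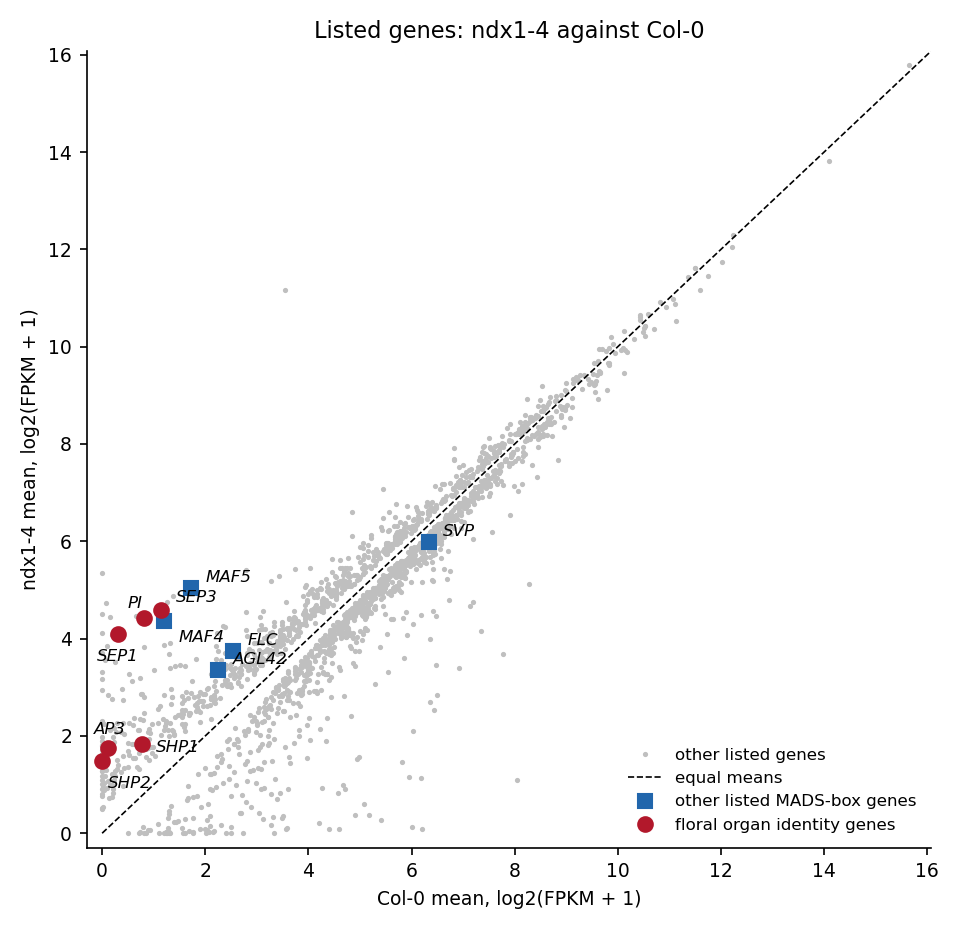
Mean level in ndx1-4 (vertical axis) against mean level in Col-0 (horizontal axis), both as log2(FPKM + 1), for the 1984 listed genes, with the 6 floral organ identity genes as red circles and the 5 other listed MADS-box genes as blue squares. The 6 circles lie above the dashed line of equal means, towards its lower left, with Col-0 means under 1.5 FPKM.

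The genes with the most similar profile were found as those at the smallest Euclidean distance over the 4 libraries on the log2(FPKM + 1) scale, a measure that joins level and pattern. For PI the nearest were AT1G27860 (distance 0.33), MAF4 (0.575), SEP3 (0.741), AT1G02770 (0.811) and SEP1 (0.917). For SEP3 they were AT1G02770 (0.47), MAF4 (0.518), EM1 (0.592), PI (0.741) and AT1G27860 (0.957). PI and SEP3 were therefore in each other's list of 5, and both had MAF4, a MADS-box gene of the FLC clade. For SEP1 the nearest were AT5G40040 (0.411), AT4G13960 (0.489), AT2G11405 (0.506), AT4G18900 (0.569) and AT1G27580 (0.696). For AP3 the distances to AT2G21930, VIM5, AT4G28160, AT5G66970 and AT4G13320 ran between 0.143 and 0.265. For SHP1 the distances to AT3G06630, PLC9, AT1G22980, AT5G04355 and AT2G02610 ran between 0.10 and 0.25, and for SHP2 those to AT1G60570, AT2G02660, AT3G26930, FBD1 and AT3G17530 between 0.0551 and 0.18. Genes of low level lie closer together on this scale, so distances are not comparable between a low and a high gene.

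The nearest listed genes on the chromosome were of both directions, with 0 to 56 annotated genes between them and the floral gene. Of the 12 nearest listed genes, 1 on each side of each of the 6, 5 were higher and 7 were lower in *ndx1-4*. This split is near that of all listed genes, of which 43.5% were higher, so it says nothing particular about the neighbours. The closest were DIN10, a raffinose synthase family gene 2.05 kb from PI with a log2(FPKM + 1) difference of -0.21, and PDF1, an epidermal gene 2.06 kb from SHP2 with a difference of -0.20. AT1G24265, 4.27 kb from SEP3, had 8.55 and 9.03 FPKM in *ndx1-4*, against 3.98 and 3.34 FPKM in Col-0. The gaps of the other 9 ranged from 13030 to 160314 bases.

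Other MADS-box genes in the table were few. By annotated product 120 genes are MADS-box or AGAMOUS-like genes, and 11 of them are listed (9.17%). Outside the 13 identifiers it was 5 of 107 (4.67%), close to the 6.00% of all annotated genes. MAF4, a repressor of flowering in the FLC clade, measured 20.3 and 18.8 FPKM in *ndx1-4*, against 1.48 and 1.11 FPKM in Col-0. MAF5, of the same clade, measured 31.38 and 32.03 FPKM in *ndx1-4*, against 2.53 and 2.03 FPKM in Col-0. Both had ratios of means, 15.1 for MAF4 and 13.9 for MAF5, near that of SEP3. AGL42, which delays the senescence of floral organs, measured 9.15 and 9.22 FPKM in *ndx1-4*, against 4.32 and 3.22 FPKM in Col-0. Its limma adjusted p was 7.18e-05, and without ndx1-4 replicate 1 or 2 it was 0.0202 or 0.0207. The others, FLC and SVP, are given with the flowering repressors.

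Genes known to act before or after the floral organ identity genes were taken from 4 lists with 47 genes in all. Of the 47 genes, 11 are in the table (23.4%, against 6.00% of annotated genes). These lists too were chosen with earlier results known, so their shares, here and below, are a description and no measure of enrichment. All 11 also passed an adjusted p of 0.01 in limma, 5 higher and 6 lower in *ndx1-4*. Since 98.9% of listed genes passed that test, 43.0% higher and 55.9% lower, passing it adds little. With a library left out fewer of the 11 passed, 6 without Col-0 replicate 1, 6 without Col-0 replicate 2, 7 without ndx1-4 replicate 1 and 6 without ndx1-4 replicate 2. The median log2(FPKM + 1) difference over the 11 was -0.35, with MAF4 and MAF5, which are in none of the 4 lists, left out.

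Of 15 activators, 2 are listed (13.3%, against 6.00% of annotated genes), 1 in each direction. SPL3, a target of miR156 that promotes the floral transition, fell to 16.61 FPKM in both *ndx1-4* libraries, against 26.93 and 26.30 FPKM in Col-0, a log2 difference of -0.65 (SE 0.0549, limma adjusted p 2.06e-05). ULT1, which counteracts Polycomb repression at floral genes, rose to 18.00 and 19.44 FPKM in *ndx1-4*, against 11.99 and 11.65 FPKM in Col-0, a log2 difference of 0.62 (SE 0.069, limma adjusted p 7.94e-05). Its adjusted p was 0.012 without Col-0 replicate 1, 0.013 without Col-0 replicate 2 and 0.0117 without ndx1-4 replicate 2. LFY, UFO, FT, FD and SOC1, which promote flowering or activate floral genes, are not listed and were not analysed here.

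Of 12 repressors of flowering or of floral genes, 7 are listed (58.3%, against 6.00% of annotated genes), 2 higher and 5 lower in *ndx1-4*. MAF4 and MAF5, described above, are not among the 12. Both were higher in *ndx1-4*, with log2 differences of 3.17 and 3.32, so the split of the 7 does not cover all listed flowering repressors. FLC, the central repressor, was higher, with 12.46 and 12.33 FPKM in *ndx1-4*, against 3.77 and 5.85 FPKM in Col-0. SNZ, an AP2-like repressor, was the other higher one of the 7. It measured 12.85 and 15.19 FPKM in *ndx1-4*, against 8.39 and 6.78 FPKM in Col-0. Among the lower ones SMZ, the paralog of SNZ, had the largest ratio, with 4.82 and 4.85 FPKM in *ndx1-4* against 9.08 and 8.26 FPKM in Col-0, that is 1.79-fold lower in *ndx1-4*. The direction of SNZ was thus opposite to that of SMZ. SVP, which represses SEP3 in young floral meristems, was lower, with 61.14 and 63.79 FPKM in *ndx1-4* against 79.42 and 79.89 FPKM in Col-0, and TEM1, TEM2 and TOE1 had log2 differences of -0.44, -0.43 and -0.41. These small differences depended on scaling. Under median-ratio scaling they were -0.25 for TEM1, -0.24 for TEM2 and -0.22 for TOE1, and SVP was at -0.16 in place of -0.35. The adjusted p of these 7 genes in limma ran between 1.16e-05 and 0.000282. With single libraries left out, 6 of the 7 lost the call under 1 or more settings, all but TEM2, with an adjusted p of 0.0105 to 0.0359 where lost. SNZ and TOE1 lost it under each of the 4. FLC (0.0359 and 0.0354) and SMZ (0.013 and 0.0133) lost it without ndx1-4 replicate 1 and without ndx1-4 replicate 2, and SVP (0.0114 and 0.0117) and TEM1 (0.0112 and 0.011) when Col-0 replicate 1 or Col-0 replicate 2 was removed.

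Of 14 Polycomb-related genes, among them CLF, SWN, EMF1, LHP1, RING1A, RING1B and VAL1, 0 are listed, against 6.00% of annotated genes. Their levels were therefore not analysed here. Of 6 genes regulated by AP3 and PI in flowers, 2 are listed (33.3%) and both rose. They are BNQ1 and BNQ2, small helix-loop-helix genes that AP3 and PI repress in petals. BNQ1 measured 31.95 and 29.51 FPKM in *ndx1-4*, against 15.17 and 15.54 FPKM in Col-0, a log2 difference of 0.95 (SE 0.0614, limma adjusted p 5.32e-06). BNQ2 measured 28.19 and 28.01 FPKM in *ndx1-4*, against 16.91 and 17.00 FPKM in Col-0, a log2 difference of 0.70 (SE 0.0535, limma adjusted p 1.27e-05). The direction of both is the same as that of PI and AP3.

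**Figure D4:**
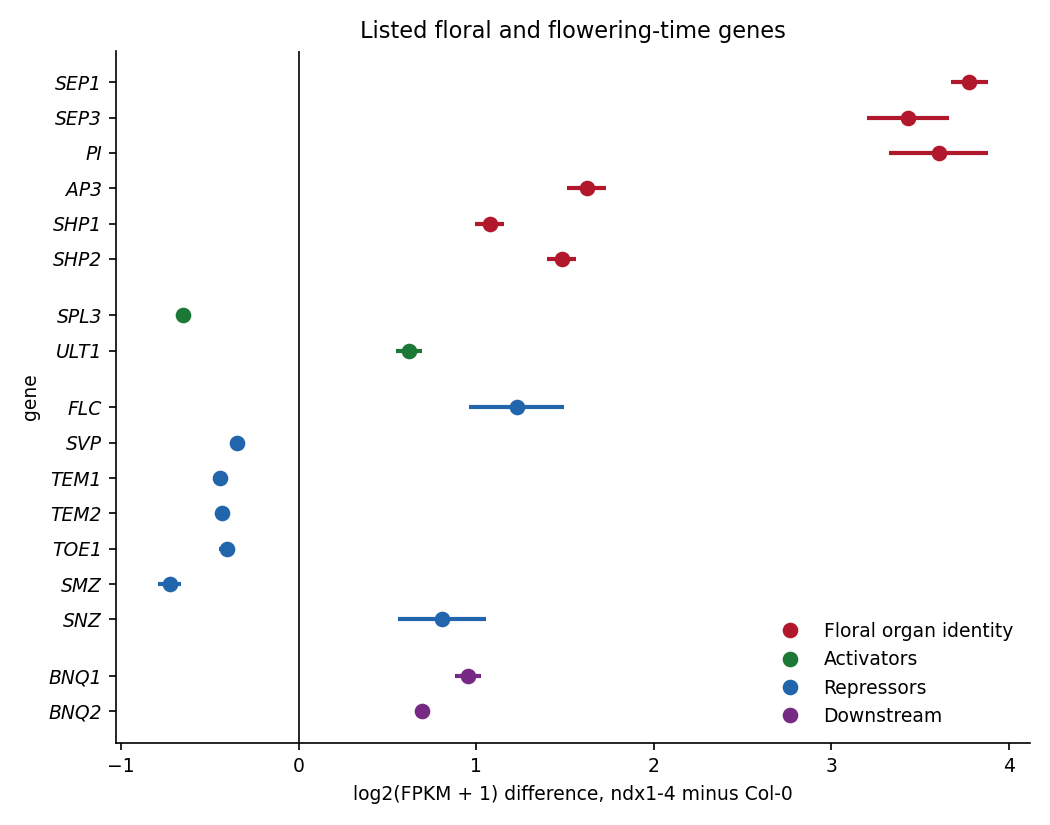
Difference between ndx1-4 and Col-0 on the log2(FPKM + 1) scale (horizontal axis) for the 6 floral organ identity genes and the 11 listed genes of the activator, repressor and downstream lists. Dots are differences of the means of log values and bars span the 4 differences between single libraries, and a bar shorter than its dot is hidden. The 6 floral genes lie between 1.08 and 3.78, while 6 of the 11 others lie below 0. MAF4 and MAF5 are not in these lists and are not shown.

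Markers of other organs were read beside these values. Of 15 genes of anthers, petals, carpels and ovules, among them AMS, DYT1, CRC, SUP and NZZ, 0 are in the table. The share over all annotated genes was 6.00%, so 0 of 15 is near the background and says little about flower tissue. The part of flower tissue in the result was not tested. Of 12 marker genes of seedling organs 3 are listed (25.0%, against 6.00% of annotated genes). The leaf gene RBCS3B measured 4107.73 and 4371.96 FPKM in *ndx1-4*, against 4699.31 and 4738.1 FPKM in Col-0, and the root gene PYK10 measured 1913.28 and 1936.64 FPKM in *ndx1-4*, against 1780.9 and 1823.25 FPKM in Col-0. Both genes, one of green tissue and one of roots, were thus high in all 4 libraries. Under median-ratio scaling the log2 difference of RBCS3B was 0.0369 (limma adjusted p 0.363) in place of -0.16, so its direction was not stable, and that of PYK10 was 0.29 in place of 0.10. With any single library left out, neither RBCS3B nor PYK10 passed the test. CASP1, of the root endodermis, had 36.41 and 41.2 FPKM in *ndx1-4*, against 26.63 and 22.62 FPKM in Col-0. CASP1 did not pass the test with any single library left out either, at log2 differences of 0.52 to 0.75. The part of these marker values in the floral gene values was not tested.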

How the data were processed

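The gene identifiers, lists and cutoffs were chosen with earlier results of these data known. Per the labels, RNA of seedlings was made into libraries with an Illumina TruSeq kit and read as single 50-base reads. The authors estimated gene levels against Araport11 using Salmon, corrected for GC bias, and called genes with DESeq2 at an adjusted p of 0.01. The deposited values are FPKM per library, rounded to steps of 0.01, for called genes only. The 2 columns of the authors' fold changes and p-values and the 4 FPKM columns of a separate table of transposable elements were not used. Digit separators in 129 cells were removed. The number of reads per library is unknown, because Salmon estimates need not be whole reads and low values gave no clear steps, so no counting interval is given.

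All 1984 identifiers had the same position in RefSeq TAIR10.1, which gave symbols, exons and sequence. A limma model (limma 3.58.1 in R 4.3.3, variance trend on) was fitted to log2(FPKM + 1) over all 4 libraries and 1984 genes, with Benjamini-Hochberg adjustment over the 1984, and was tested on simulated data. These genes had been called on the same libraries, so limma is a recheck only. Named genes were NDX, the listed floral genes, listed members of the fixed lists (values at 1.5-fold or more, otherwise by range or where a statement needs them), the 5 nearest profiles and the nearest listed neighbours. AGL42, MAF4 and MAF5 were named after their values were seen. The motif searches and marker lists were not tests.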

Additional observations from a re-analysis of the deposited data

How the results depend on the processing

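The direction of the 6 floral genes held under each setting run. The size of the difference depended on the pseudocount. With 0.1 in place of 1 the log2 difference was 5.60 for SEP1, 4.14 for SEP3, 4.60 for PI, 3.73 for AP3, 1.75 for SHP1 and 4.24 for SHP2, since a smaller pseudocount weighs low Col-0 values more. The value for SHP2, listed at 0 in Col-0, depends strongly on the pseudocount. Median-ratio scaling over the listed genes gave a median over all of them of -0.01 in place of -0.20 and gave 3.89 for SEP1 and 1.19 for SHP1, and it moved the other 4 by less than the replicate SD. With single libraries left out the difference ran from 3.70 to 3.86 for SEP1, 3.30 to 3.57 for SEP3, 3.46 to 3.75 for PI, 1.02 to 1.13 for SHP1 and 1.40 to 1.56 for SHP2, and for AP3 it moved by less than the replicate SD.

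In limma 1963 listed genes passed, 853 higher and 1110 lower, and 1481 after that scaling, 869 higher and 612 lower, so that 58.7% in place of 43.5% were higher. With single libraries left out 773 to 815 genes and 6 to 7 of the 11 pathway genes passed, with fewer samples in the fit. Replicate numbers did not pair the libraries (r = 0.0239 between the replicate differences of the genotypes, across 1984 genes, which are not independent replicates). With a replicate block 1958 genes passed, 1953 of which also passed with no block, and it changed no call among the pathway genes, of which 11 passed. Under the other settings 11 of 11 passed as well. The 18 other list and family genes kept their direction except the leaf marker RBCS3B, at 0.0369 under median-ratio scaling in place of -0.16. Without read numbers, a level of 0 cannot be given an upper limit.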

Other observations

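Genes with the word F-box in their annotated product, which covers F-box proteins and also F-box associated families, recurred among the genes of similar profile, a pattern noticed after the values had been seen and given here with no test. Of the 24 genes nearest in profile to the 6 floral genes, counted once and without the 6, 6 have that word (25.0%), 2 of them, AT2G21930 and AT2G02660, as F-box associated ubiquitination effector family proteins. Among the 146 other listed genes that were higher in *ndx1-4* with a Col-0 mean under 1.5 FPKM it was 21 (14.4%), among all 1984 listed genes 36 (1.81%) and among all 33056 annotated genes 652 (1.97%).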
